A study of Mus musculus with 4 samples.

Results

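Acpp and 9 genes of extracellular nucleotide signalling were compared between mouse macrophages grown with GM-CSF and macrophages grown with M-CSF. Each gene was read from the probe set whose platform symbol was that gene alone, the brightest one on average where a gene had several. Of the 10 genes, 8 were measured (Acpp, Entpd1, Nt5e, P2rx4, P2rx7, P2ry6, P2ry12 and P2ry14), among 19938 genes read in this way. The adenosine receptor genes Adora2a and Adora2b were not analysed here. Each of the 8 had 1 probe set, so no level on the arrays chose among them. All 8 passed the filter on dim genes, which left 14995 genes to test.

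GM-CSF M1 cells were bone marrow cells of C57BL/6J mice grown for 7 days with GM-CSF and sorted as CD45+, MHCII+, CD8a- and F4/80+. M-CSF M2 cells came from the same strain, were grown for 7 days with M-CSF supplied as 20% supernatant of L929 cells (a mouse fibroblast line), and were sorted as CD45+, F4/80+ and CD11b+. M1 and M2 are the submitters' names, and no genotype, age or further stimulus is given in the labels. Each group had 2 arrays, and growth factor, L929 supernatant and sort gate changed together, so their parts cannot be told apart. Nothing in the labels ties a replicate to its own culture or mouse. The p-values therefore reflect the scatter of these arrays alone, which may be partly technical.

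Cells release ATP and other nucleotides when they are stressed, damaged or activated, and these act on neighbouring cells through P2X receptors, which are ATP-gated ion channels, and P2Y receptors, which are coupled to G proteins. Ectonucleotidases cut the signal down stepwise. The Entpd1 product (CD39) converts ATP and ADP to AMP, and the Nt5e product (CD73) converts AMP to adenosine. Prostatic acid phosphatase, the product of Acpp, can also make adenosine from AMP. Adenosine acts on its own receptors and is removed by nucleoside transporters, adenosine kinase and adenosine deaminase.

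The promoter windows below belong to the genes on which the results turn, Acpp and the neighbouring P2Y receptor genes P2ry14, P2ry13 and P2ry12. Each holds 250 bases before and 50 bases after the RefSeq gene start (GRCm38.p6), 5′ to 3′ on the gene's strand. Capitals mark the purine-rich letters GAGGAAG, which resemble the core bound by the myeloid ETS factor PU.1, and TGANTCA, the AP-1 element.
Acpp, chr9:104337673-104337972, minus strand: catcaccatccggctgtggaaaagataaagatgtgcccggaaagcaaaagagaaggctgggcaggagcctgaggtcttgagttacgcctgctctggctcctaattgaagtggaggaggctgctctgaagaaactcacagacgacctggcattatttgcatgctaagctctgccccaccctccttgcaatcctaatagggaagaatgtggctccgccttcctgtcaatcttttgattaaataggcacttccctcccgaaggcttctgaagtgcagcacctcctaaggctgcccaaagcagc
P2ry14, chr3:59153443-59153742, minus strand: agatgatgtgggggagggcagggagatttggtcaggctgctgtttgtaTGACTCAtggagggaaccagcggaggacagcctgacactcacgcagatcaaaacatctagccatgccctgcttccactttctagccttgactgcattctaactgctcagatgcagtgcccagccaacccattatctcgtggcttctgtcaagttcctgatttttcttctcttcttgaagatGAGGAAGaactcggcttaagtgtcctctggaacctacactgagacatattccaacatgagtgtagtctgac
P2ry13, chr3:59210833-59211132, minus strand: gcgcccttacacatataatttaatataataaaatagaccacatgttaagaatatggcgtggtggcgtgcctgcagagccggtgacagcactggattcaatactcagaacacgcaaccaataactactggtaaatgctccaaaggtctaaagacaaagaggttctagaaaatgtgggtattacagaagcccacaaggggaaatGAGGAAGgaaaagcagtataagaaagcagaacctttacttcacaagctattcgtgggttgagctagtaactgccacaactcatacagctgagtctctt
P2ry12, chr3:59262936-59263235, minus strand: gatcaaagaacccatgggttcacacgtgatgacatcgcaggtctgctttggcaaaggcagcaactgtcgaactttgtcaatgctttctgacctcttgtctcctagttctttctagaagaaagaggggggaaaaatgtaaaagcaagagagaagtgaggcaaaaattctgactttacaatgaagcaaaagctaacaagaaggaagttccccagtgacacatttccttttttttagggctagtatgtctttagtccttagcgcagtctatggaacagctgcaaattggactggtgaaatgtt

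The GM-CSF arrays differed more from each other than the M-CSF arrays did, and GM-CSF replicate 1 stood apart in the sex-linked genes Xist and Eif2s3y. Over the genes tested the GM-CSF arrays correlated with r = 0.981 and the M-CSF arrays with r = 0.9944 (across genes, which are not independent replicates), and 226 genes differed at least 2-fold within the GM-CSF pair against 7 within the M-CSF pair. Xist, expressed from the silenced X of female cells, read 11.58 on the log2 scale in GM-CSF replicate 1 and between 4.53 and 4.93 in the other 3 arrays. The Y-linked gene Eif2s3y read 3.66 in GM-CSF replicate 1 and between 9.10 and 9.32 in the other 3. GM-CSF replicate 1 thus had the pattern of female cells and the other 3 arrays that of male cells, so the GM-CSF arrays did not hold cells of 1 and the same mouse, and sex differed within that group. The part of sex in the differences was not tested, and values with GM-CSF replicate 1 left out, which leaves arrays of the male pattern, are given for the members. Differences below are GM-CSF M1 minus M-CSF M2 on the log2 scale of the deposited RMA values, and a gene was called at an adjusted p under 0.05 (limma, Benjamini-Hochberg over all genes tested). The 95th percentile of 1027 olfactory receptor genes, 5.90 as a mean over the arrays, served as the upper edge of the background range. Levels of different genes come from different probes and are not compared with each other. A lower level in these bulk samples can mean fewer cells of a type or less RNA per cell, which cannot be told apart.

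Of the 7 measured members other than Acpp, 1 was called higher in GM-CSF cells, P2ry14, and 0 were called lower. The members had been picked with results of these data known, and Acpp itself was picked for its difference, so it is described without a test. Of all genes tested 6.18% were called higher and 4.53% lower. At an unadjusted p under 0.05, 2 of the 7 were higher and 1 lower, against 12.9% and 12.6% of all genes tested (limma). The counts of the gene lists below are to be read against the same shares. Their median difference was -0.09, against -0.01 over all genes tested. The arrays of the groups did not overlap for 4 of the 7, against 55.4% of all genes tested.

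**Figure D1:**
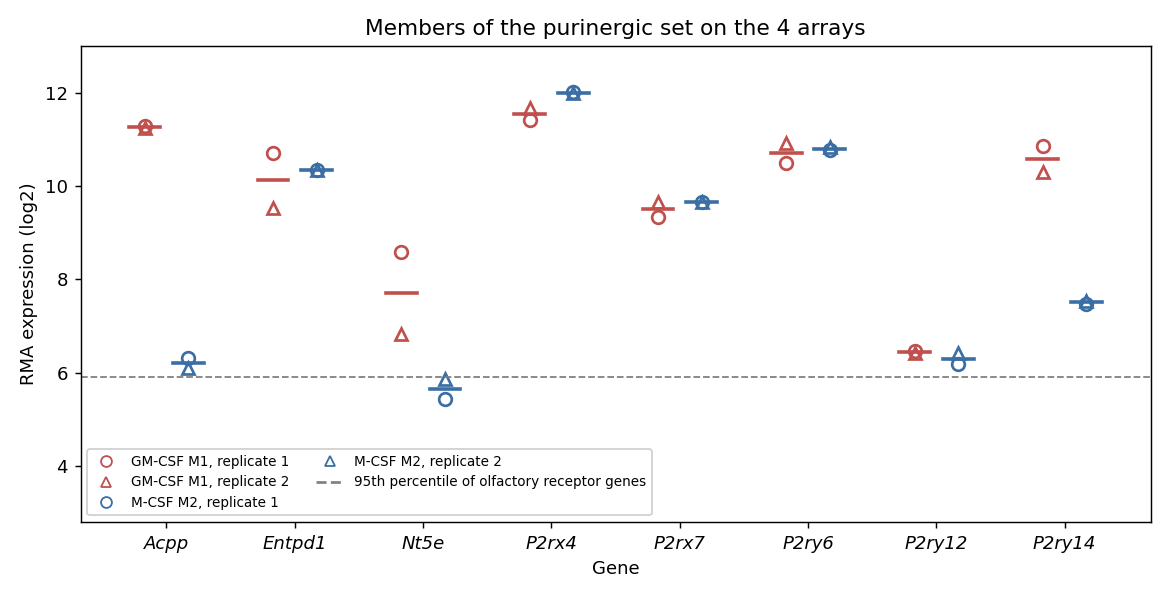
RMA expression (log2, vertical axis) of the 8 measured members on the 4 arrays, GM-CSF M1 in red left of M-CSF M2 in blue, with circles for replicate 1, triangles for replicate 2, bars for group means and a dashed line at the 95th percentile of olfactory receptor genes (5.90). Acpp and P2ry14 show wide gaps between the groups, and Nt5e and Entpd1 show the widest gaps within the GM-CSF pair.

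Acpp read 11.28 and 11.24 in GM-CSF cells, against 6.31 and 6.09 in M-CSF cells. Both GM-CSF arrays were high and close together, and both M-CSF arrays lay just above the background range. The group means were 11.26 ± 0.03 and 6.20 ± 0.15 (SD, n = 2 each), a difference of 5.06 or 33.3-fold, which ranked 7 by size among the 14995 genes tested. Dim values limit how well the M-CSF level is known. Leaving out any 1 of the 4 arrays gave differences from 4.95 to 5.17, and leaving out GM-CSF replicate 1 gave 5.04.

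The 6 genes whose pattern over the 4 arrays was most like that of Acpp were Mmp12, Fn1, Slc7a2, Slc6a12, Susd2 and Itgax. Likeness was the root mean square difference between the values after each gene was centred on its own mean, and it was smallest for Mmp12 at 0.16. Itgax, at 0.35, was the least close of the 6. Mmp12, macrophage elastase, read 12.80 and 12.35 in GM-CSF cells, against 7.73 and 7.59 in M-CSF cells. Itgax, which encodes CD11c, read 10.72 and 10.05 in GM-CSF cells, against 6.01 and 5.71 in M-CSF cells.

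Of the 5 other acid phosphatase genes that were measured, Acp1, Acp2, Acp5, Acp6 and Pxylp1, 0 were called higher and 0 lower, and 1 was higher and 0 lower at an unadjusted p under 0.05 (limma). Their median difference was -0.14. Acp5, tartrate-resistant acid phosphatase of osteoclasts and macrophages, read 10.54 and 11.25 in GM-CSF cells, against 10.22 and 10.20 in M-CSF cells (difference 0.68 ± 0.23 SE, limma adjusted p = 0.121). Acp2, lysosomal acid phosphatase, differed by -0.40 ± 0.20. Acp5 differed by 1.04 without GM-CSF replicate 1 and by 0.33 without GM-CSF replicate 2. Acp2 differed by -0.10 without GM-CSF replicate 1 and by -0.69 without GM-CSF replicate 2.

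Nt5e read higher on both GM-CSF arrays than on either M-CSF array but did not pass the test. It read 8.58 and 6.83 in GM-CSF cells, against 5.45 and 5.86 in M-CSF cells. The GM-CSF arrays lay 1.75 apart, a wider gap than that of 99.6% of genes tested, and the M-CSF values lay within the background range. The difference was 2.05 ± 0.52 (SE, n = 2 per group, 95% interval 0.78 to 3.32, limma adjusted p = 0.0598). It was 1.18 with GM-CSF replicate 1 left out and 2.93 with replicate 2 of that group left out, and both of those fits called it (limma adjusted p = 7.44e-05 and 1.84e-09), with a spread taken from the closer M-CSF pair alone. Without M-CSF replicates 1 and 2 the adjusted p was 0.379 and 0.28.

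Entpd1 was not called. It read 10.71 and 9.53 in GM-CSF cells, against 10.33 and 10.34 in M-CSF cells. The GM-CSF arrays lay on either side of the M-CSF pair, 1.19 apart, which was wider than the gap of 99.0% of genes tested. The difference was -0.22 ± 0.35 (95% interval -1.07 to 0.64, limma adjusted p = 0.779). It was -0.81 and called lower without GM-CSF replicate 1 (limma adjusted p = 0.000427), and 0.38 without GM-CSF replicate 2 (limma adjusted p = 0.0593); the sign turned with the GM-CSF array that was kept.

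Among the other ectonucleotidase and ectophosphatase genes, Entpd4 was called higher and Entpd6 lower in GM-CSF cells. Both belong to the NTPDase family of Entpd1, but their products are known mainly from inside the secretory pathway. Entpd4 read 9.88 and 9.47 in GM-CSF cells, against 8.96 and 9.03 in M-CSF cells (0.67 ± 0.16 SE, 1.59-fold, limma adjusted p = 0.0457). This call was lost with no filter on dim genes (0.0613), after quantile normalization (0.054), with centring on medians of the genes tested (0.0606) and without M-CSF replicate 1 (0.317) or 2 (0.266), all limma adjusted p. Entpd6 read 7.15 and 7.13 in GM-CSF cells, against 7.98 and 7.95 in M-CSF cells (-0.82 ± 0.10, 1.77-fold lower, limma adjusted p = 0.00565). It lost its call without M-CSF replicate 1 (limma adjusted p = 0.106) and replicate 2 (0.101).

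Without Acpp, 10 genes of that list were tested, of which Entpd4 and Entpd6 were called and 8 were not. Their median difference was 0.04. Entpd5, an NTPDase of the endoplasmic reticulum, was not called (0.40 ± 0.13, limma adjusted p = 0.11). Entpd8 and Enpp3 were measured but too dim to test, and Enpp1 was not analysed here. Bst1, which like CD38 makes cyclic ADP-ribose from NAD, was the only gene measured of 4 listed NAD ectoenzymes. It read 11.48 and 11.31 in GM-CSF cells, against 9.84 and 9.50 in M-CSF cells (1.72 ± 0.15 SE, 3.30-fold higher, limma adjusted p = 0.00146), and stayed called without any 1 of the arrays (limma adjusted p of at most 0.0397).

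**Figure D2:**
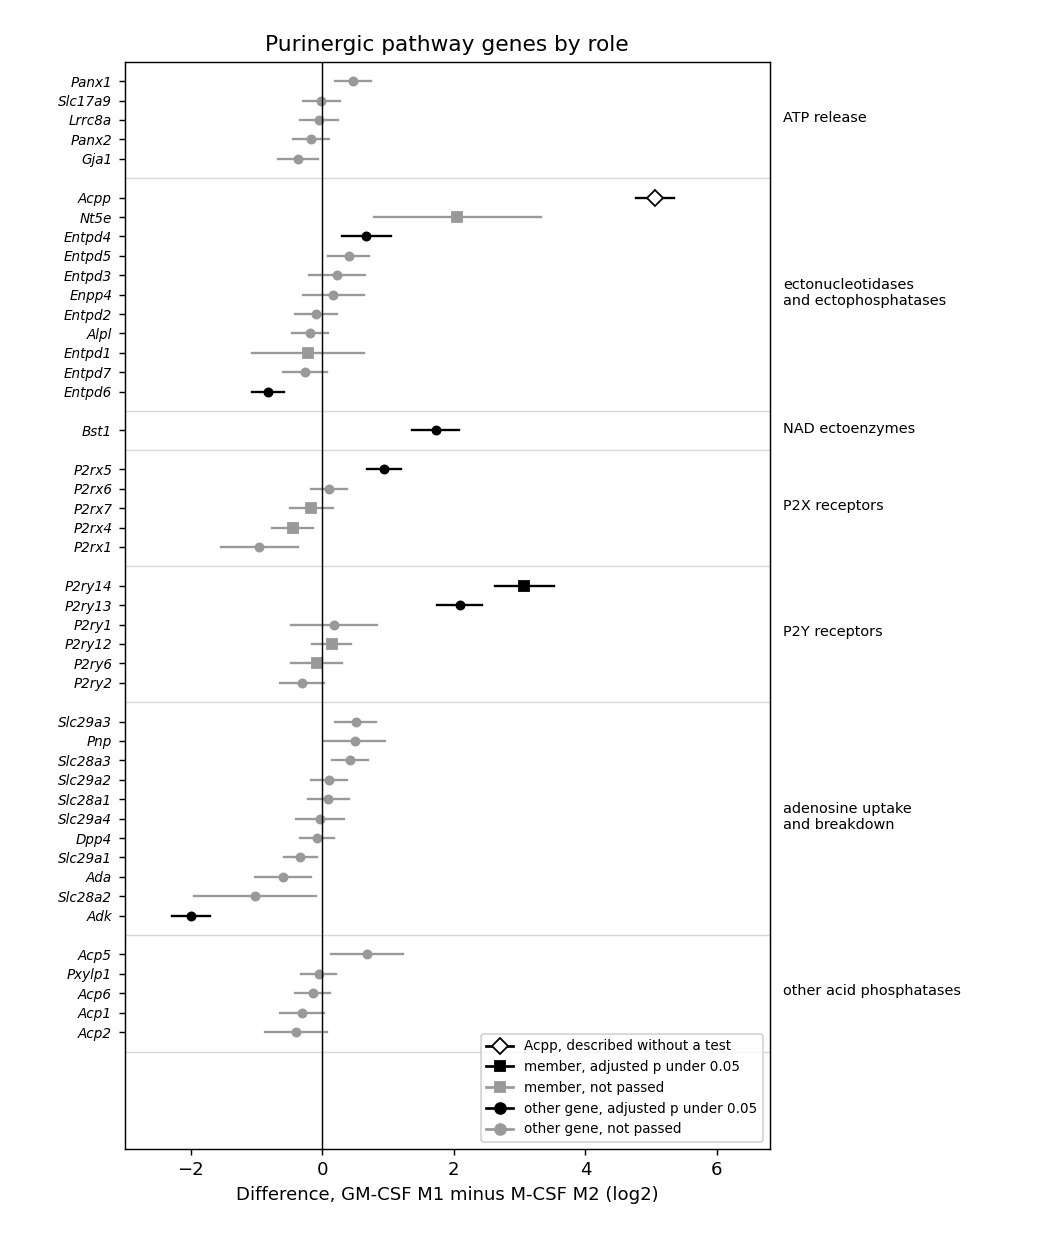
Differences on the log2 scale (horizontal axis, GM-CSF M1 minus M-CSF M2) with 95% intervals from limma for the 44 tested genes of the nucleotide and adenosine pathway, grouped by role. Acpp, P2ry14 and P2ry13 lie farthest to the right, with Adk farthest to the left.

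The ATP-gated channel genes P2rx4 and P2rx7 were not called. P2rx4 encodes a channel that sits largely in lysosomes of macrophages and opens at low ATP. It read 11.41 and 11.68 in GM-CSF cells, against 12.003 and 11.988 in M-CSF cells. Both GM-CSF arrays lay below both M-CSF arrays, and the difference was -0.45 ± 0.13 (95% interval -0.76 to -0.14, limma adjusted p = 0.0813). With trended and robust variances it was called lower (limma adjusted p = 0.043), as it was without GM-CSF replicate 2 (-0.59, limma adjusted p = 0.00464), but not without GM-CSF replicate 1 (-0.31, limma adjusted p = 0.136).

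P2rx7 encodes the channel that opens at high ATP and triggers the NLRP3 inflammasome. It read 9.34 and 9.65 in GM-CSF cells, against 9.66 and 9.66 in M-CSF cells. GM-CSF replicate 1 was the lowest array and replicate 2 lay next to the M-CSF pair. The difference was -0.16 ± 0.13 (95% interval -0.49 to 0.16, limma adjusted p = 0.53), so the interval holds folds from 0.711 to 1.12. It was -0.009 with GM-CSF replicate 1 left out and -0.32 with replicate 2 left out.

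P2rx5 was the P2X gene that passed. It read 7.22 and 7.23 in GM-CSF cells, against 6.22 and 6.35 in M-CSF cells (0.94 ± 0.11 SE, 1.92-fold higher, limma adjusted p = 0.0043). Its call was lost without M-CSF replicate 1 (limma adjusted p = 0.0929) and replicate 2 (0.0736). P2rx1, a fast ATP-gated channel known from platelets and myeloid cells, read 6.84 and 6.12 in GM-CSF cells, against 7.57 and 7.30 in M-CSF cells. Its difference of -0.95 ± 0.24 did not pass (limma adjusted p = 0.0584), and ran from -1.31 to -0.59 when each array was left out. Of 5 P2X genes tested 1 was called higher and 0 lower, with 1 higher and 2 lower at an unadjusted p under 0.05 (limma), and P2rx2 and P2rx3 were too dim to test. P2rx7 and P2rx4 are neighbours on chromosome 5. Camkk2, a calcium-dependent kinase gene that overlaps P2rx4 on the opposite strand in RefSeq, differed the other way from P2rx4, by 0.55 ± 0.12 (limma adjusted p = 0.0388). Camkk2 lost its call with no filter (limma adjusted p = 0.0546) and without M-CSF replicate 1 (0.186) or 2 (0.285).

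P2ry14, the receptor for UDP-glucose and related UDP-sugars, was the member called higher. It read 10.85 and 10.31 in GM-CSF cells, against 7.48 and 7.53 in M-CSF cells. Both GM-CSF arrays lay far above both M-CSF arrays, and all 4 lay above the background range. The group means were 10.58 ± 0.38 and 7.51 ± 0.04 (SD, n = 2 each). The difference was 3.07 ± 0.18 (SE, 95% interval 2.62 to 3.52), or 8.41-fold (limma adjusted p = 0.000458), and ranked 75 by size among all genes tested. It ran from 2.80, with GM-CSF replicate 1 left out, to 3.34 when each array was left out, and stayed called (limma adjusted p of at most 0.0302).

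P2ry13, an ADP receptor gene of the same cluster, was called higher as well. It read 10.15 and 9.82 in GM-CSF cells, against 7.94 and 7.84 in M-CSF cells (2.09 ± 0.14 SE, 4.26-fold, limma adjusted p = 0.000657), and stayed called without any 1 of the arrays (limma adjusted p of at most 0.0359). P2ry12, the next gene, encodes the ADP receptor known from platelets and microglia. It read 6.47 and 6.42 in GM-CSF cells, against 6.18 and 6.42 in M-CSF cells, so the groups overlapped just above the background range. Its difference was 0.14 ± 0.12 (95% interval -0.16 to 0.44, limma adjusted p = 0.55), and 0.12 without GM-CSF replicate 1.

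The cluster on chromosome 3 lies within Med12l, a Mediator subunit gene read on the opposite strand. Med12l read 5.91 and 5.66 in GM-CSF cells, against 5.42 and 5.65 in M-CSF cells, with both means in the background range (limma adjusted p = 0.335). Gpr171, a G protein-coupled receptor gene on the other side of P2ry14, read 8.44 and 7.29 in GM-CSF cells, against 6.58 and 6.18 in M-CSF cells. Both its GM-CSF arrays were above both M-CSF arrays, with the higher value in replicate 1, and its difference of 1.49 ± 0.36 did not pass (limma adjusted p = 0.053). When each array was left out, this difference ran from 0.91, without GM-CSF replicate 1, to 2.07, without GM-CSF replicate 2. Igsf10, beyond P2ry12, was too dim to test.

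**Figure D3:**
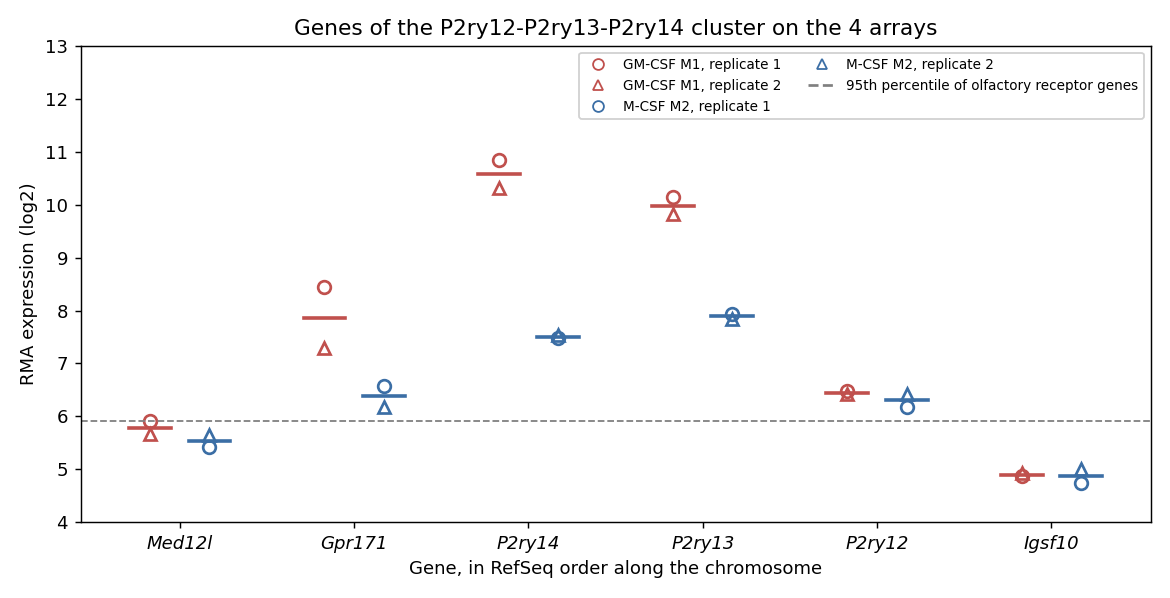
RMA expression (log2, vertical axis) of the measured genes of the P2ry12, P2ry13 and P2ry14 cluster in RefSeq order, GM-CSF M1 in red left of M-CSF M2 in blue, with circles for replicate 1, triangles for replicate 2, bars for group means and a dashed line at the 95th percentile of olfactory receptor genes (5.90). P2ry14 and P2ry13 differ between the groups, while the values of P2ry12 overlap.

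In the promoter windows printed above, GAGGAAG was found once in the P2ry14 window, 14 bases before the start site, and once in that of P2ry13, 41 bases before it. P2ry14 has 4 windows in the table, of which the one at the annotated gene start is printed. GAGGAAG was in 1 of these 4, the printed one, and TGANTCA in 2. It was not found in the windows of P2ry12 and Acpp. On either strand 13.6% of 32851 RefSeq windows of this length held it. TGANTCA was found once in the P2ry14 window, 195 bases before the start, and in 7.81% of all windows. GAGGAAG also lay in windows of Entpd1 and P2rx7, and TGANTCA in windows of P2rx7, which are not printed. These were 2 of 10 motifs searched on both strands. The letters GGAA, the core of ETS sites, lie within GAGGAAG and were in all 14 windows listed for the members and P2ry13, as in 96.0% of all windows. The STAT element TTCNNNGAA, held by 8.3% of all windows, was in none of the 14, and neither was the cyclic AMP element TGACGTCA (1.79%). The TATA letters TATAAA were in 1 of the 14, a P2ry14 window, and in 13.6% of all windows. The GC box GGGGCGG was in 3 of the 14 and in 23.2% of all windows. The CCAAT box was in 6 of the 14, with P2ry12, P2ry13 and P2ry14 among their genes, and in 37.4% of all windows. The nuclear receptor letters AGGTCA were in 4, with P2ry12 and P2ry14 among their genes, and in 16.3% of all. The E-box CANNTG was in 10 and in 72.3% of all. A match is a run of letters and not a measured binding site.

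Kynu, Naaa and Crip1 were the genes with the pattern most like that of P2ry14. Their root mean square differences from it were 0.11, 0.12 and 0.13. Kynu, kynureninase of tryptophan breakdown, read 9.21 and 8.87 in GM-CSF cells, against 6.13 and 6.00 in M-CSF cells. Naaa, a lysosomal amidase, read 12.27 and 11.61 in GM-CSF cells, against 9.12 and 8.96 in M-CSF cells.

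P2ry6, the UDP receptor, read 10.50 and 10.93 in GM-CSF cells, against 10.78 and 10.83 in M-CSF cells. The GM-CSF arrays lay on either side of the M-CSF pair. Its difference of -0.09 ± 0.16 (95% interval -0.47 to 0.30, limma adjusted p = 0.809) was 0.13 with GM-CSF replicate 1 left out and -0.30 with replicate 2 left out. P2ry2, its neighbour on chromosome 7 and a receptor for ATP and UTP, differed by -0.31 ± 0.14 (limma adjusted p = 0.226), and was called lower without GM-CSF replicate 2 (-0.44, limma adjusted p = 0.0352), but not without replicate 1 (-0.18, 0.478). P2ry1, an ADP receptor, read 7.52 and 6.66 in GM-CSF cells, against 6.92 and 6.90 in M-CSF cells. Its difference of 0.18 ± 0.27 (limma adjusted p = 0.753) was -0.25 with GM-CSF replicate 1 left out and 0.61 with replicate 2 left out. Of 6 P2Y genes tested 2 were called higher and 0 lower, with the same 2 and 0 at an unadjusted p under 0.05 (limma).

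**Figure D4:**
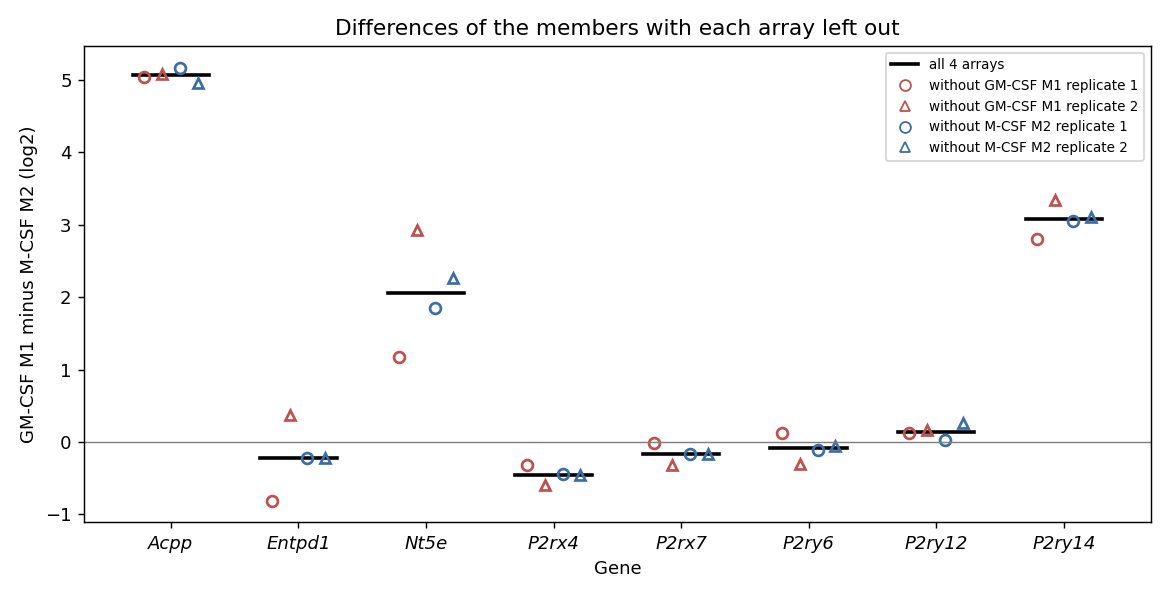
Difference on the log2 scale (vertical axis, GM-CSF M1 minus M-CSF M2) of each measured member with all 4 arrays (black bars) and with each array left out (red, a GM-CSF M1 array left out; blue, an M-CSF M2 array left out). Acpp stays between 4.95 and 5.17 and P2ry14 between 2.80 and 3.34, while Entpd1 lies on both sides of 0.

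Adk, adenosine kinase, which turns adenosine back into AMP inside the cell, was called lower in GM-CSF cells. It read 8.15 and 7.95 in GM-CSF cells, against 10.09 and 10.00 in M-CSF cells. Both GM-CSF arrays lay below both M-CSF arrays, and the difference was -1.99 ± 0.12 (SE, 3.98-fold lower, limma adjusted p = 0.000454). It ran from -2.09 to -1.90 when each array was left out and stayed called (limma adjusted p of at most 0.0276). Of 11 genes tested for adenosine uptake and breakdown 1 was called, lower, and 10 did not pass. At an unadjusted p under 0.05, 3 of them were higher and 4 lower (limma), where 12.9% and 12.6% of all genes tested were. The median difference of the 11 genes was -0.04. Slc28a3, among the 3 higher, lay in the background range in both groups and passed the filter on dim genes only through the GM-CSF arrays.

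Slc28a2, a concentrative nucleoside transporter, read 7.25 and 8.53 in GM-CSF cells, against 8.84 and 8.98 in M-CSF cells. Its difference of -1.02 ± 0.38 did not pass (limma adjusted p = 0.159). This was -0.38 with GM-CSF replicate 1 left out and -1.66 with replicate 2 left out. Ada, adenosine deaminase, differed by -0.60 ± 0.18 (limma adjusted p = 0.0888) and was called lower without GM-CSF replicate 2 (-0.85, limma adjusted p = 0.000232), but not without replicate 1 (-0.35, 0.0963). Among 5 genes tested for ATP release, 0 were called in either direction, and 1 was higher and 1 lower at an unadjusted p under 0.05 (limma). Panx1, the pannexin channel that releases ATP from macrophages and dying cells, differed by 0.47 ± 0.11 (limma adjusted p = 0.0509). This passed with the stricter filter (limma adjusted p = 0.0412), with trended and robust variances (0.0422) and with centring on array medians (0.0492). It did not pass with no filter (limma adjusted p = 0.0733), after quantile normalization (0.0648) or with probe sets averaged (0.0507). Nor did it with centring on medians of the genes tested (0.0715) or with arrays paired by replicate number (0.0714). With each array left out the Panx1 difference ran from 0.40 to 0.53. Gja1, connexin 43, differed by -0.37 ± 0.12 (limma adjusted p = 0.126), and was called lower without GM-CSF replicate 2 (-0.49, limma adjusted p = 0.0153), but not without replicate 1 (-0.24, 0.274). Over all 43 tested genes of the pathway other than Acpp, 5 were called higher and 2 lower, with a median difference of -0.05. Over all genes tested 6.18% were called higher and 4.53% lower. At an unadjusted p under 0.05, 12 of the 43 were higher and 8 lower (limma), against 12.9% and 12.6% of all genes tested. The 12 include Slc28a3, with its values in the background range.

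Macrophage markers were well above background on every array, with 8 of 8 between 10.28 and 13.31 and 0 called (limma), although 1 was higher at an unadjusted p under 0.05. Single markers of other cell types also differed between the groups. The 6 dendritic cell markers had mean log2 values of 6.34 and 6.11 in GM-CSF arrays, against 5.52 and 5.61 in M-CSF arrays. Of these 2 were called higher, Clec9a (2.44) and Ccr7 (1.16). Clec9a lay in the background range in M-CSF cells and passed the filter on dim genes only through the GM-CSF arrays, where it was high. Cd209a (0.61) and Zbtb46 (0.25) were not called. Flt3 (-0.32) and Xcr1 (-0.19) differed the other way, were not called and lay in the background range in both groups. The 4 measured platelet or megakaryocyte markers averaged 7.87 and 7.41 in GM-CSF arrays, against 6.86 and 6.58 in M-CSF arrays. Ppbp was called higher (3.75) and had by far the largest difference of the 4, and Gp9 was called lower (-0.73). Itga2b (0.30, limma adjusted p = 0.19) and Itgb3 (0.35, limma adjusted p = 0.325) were not called. In GM-CSF arrays Ppbp read 12.28 and 10.87, against 8.25 and 7.40 in M-CSF arrays. Of the neutrophil markers 1 of 6 was called (Mpo, -0.64). Elane (-0.18) and Ngp (-0.09) differed in the direction of Mpo, and Ly6g (1.02), Ltf (0.46) and Camp (0.14) the other way. Mpo in GM-CSF cells and Ly6g in both groups lay in the background range. Among the fibroblast markers 1 of 5 was called (Dcn, 1.07). Col1a1 (-0.29), Pdgfra (-0.29), Col1a2 (-0.16) and Col3a1 (-0.10) differed the other way. The 3 measured microglia markers held 1 that was called (Tmem119, higher). The neutrophil list averaged 6.55 and 6.00 in GM-CSF arrays, against 6.16 and 6.15 in M-CSF arrays, the fibroblast list 6.58 and 6.50 against 6.46 and 6.52, and the microglia list 6.54 and 6.50 against 6.21 and 6.20, in the same order of groups. None of the tested mast cell, eosinophil or T and NK cell markers was called, 1, 2 and 1 of them, and no B cell marker was bright enough to test. The part of such cells in the differences of Acpp, P2ry14, P2ry13 and Adk was not tested.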

How the data were processed

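Total RNA (300 ng per sample) of sorted cells was amplified and biotin-labelled for 1-colour arrays, per the labels' protocols. The authors deposited one log2 value for each probe set and array; the submitters' processing notes name RMA and Affymetrix Expression Console 1.1. RMA subtracts background and brings the arrays to one distribution, so it can compress differences of dim genes. No detection calls or scan batches were in the files used here.

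Of 35556 probe sets, 21789 had 1 gene symbol in the platform annotation, 1621 several and 12146 none listed. The brightest probe set stood for a gene. Genes entered when at least 2 of 4 arrays lay above the array's 30th percentile. Differences were tested with limma 3.58.1 (R 4.3.3), by two-sided moderated tests from lmFit and eBayes with 4.17 prior and 2 residual degrees of freedom, and the fit was tested on simulated data. Tables and plots were made in Python 3.11.15 (pandas 2.3.3, matplotlib 3.10.9). The number of arrays limits the precision. No block was fitted in the results given, since the labels do not say that the replicate numbers pair the arrays.

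The members and gene lists were chosen with earlier results of these data known. Named are the members, pathway genes past the threshold, the 2 largest differences per list that did not pass, the genes most like Acpp and P2ry14 (predicted genes, clones and receptors of smell left out) and cluster neighbours. Promoter windows and gene order come from RefSeq (GRCm38.p6), and 8 of 10 members had a window. Positions of probe sets are not given.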

Additional observations from a re-analysis of the deposited data

How the results depend on the processing

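Alternatives were dropping the filter or raising it to the 50th percentile, quantile normalization, averaging a gene's probe sets, centring on array medians, trended and robust variances, a replicate block, leaving out each array, and, added after seeing the data, centring on medians of the genes tested. In all 12 of these fits P2ry14, P2ry13, Bst1 and Adk kept their direction and stayed called (limma), and Acpp kept its direction. Leaving out each array, the genes called ranged from 168 to 1683 higher and from 65 to 1522 lower, against 926 and 679 with 4 arrays. With a GM-CSF array left out, the remaining spread is that of the M-CSF pair. Members called lower numbered 0 to 1 in these fits and 1 with trended and robust variances (P2rx4), against 0. Pathway genes called ranged from 4 to 11 higher and from 1 to 11 lower, against 6 and 2. These counts of pathway genes called higher include Acpp, which was picked for its difference, so its call is not a test. Without Acpp, 5 pathway genes were called higher and 2 lower with 4 arrays (limma). With the replicate block Nt5e was called (limma adjusted p = 0.049), as with centring on array medians (0.0311), and so were P2rx1 (0.0149 and 0.0364) and Gpr171 (0.00874 and 0.0287). Camkk2 lost its call with the block (0.0551). Paired by replicate number, 966 genes were higher and 674 lower. Same-numbered arrays deviated together by r = 0.0649 over genes. With 2 arrays per group and sex differing within the GM-CSF pair, this correlation cannot show whether the numbers pair the arrays. With each array left out, Entpd1 ran from -0.81 to 0.38, P2ry6 from -0.30 to 0.13 and P2ry1 from -0.25 to 0.61, and the sign of each turned with the GM-CSF array left out. Signal near background limits Acpp and Nt5e in M-CSF cells and P2ry12 in both groups.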
